A study of Mus musculus with 13 samples.

Results

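The genes described here are those of the unfolded protein response and of protein folding in the endoplasmic reticulum (ER), a list of 33 genes named by symbol. A gene counted as measured where a probe set was annotated to it alone, and its brightest probe set stood for it. By this rule 31 of the 33 genes were measured, among 18818 genes in all. Ddit3, which encodes the stress factor CHOP, shares its probe set with Mars1, and Pdia4 shares its probe set with Mir704, so no value is given for either.

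Epididymal white fat was taken from male mice, and its RNA was hybridised to 13 Affymetrix arrays, 1 per sample. The mice were wild type (C57Bl/6J) or CD1d knockout (B6.129S6-Cd1d1/Cd1d2tm1spb/J, CD1d-/-). Injections into the peritoneum on days 0 and 2 held either α-galactosylceramide (αGalCer), at 100 ng/g, or its vehicle, pyridine. All 4 groups ate a high-fat diet for 4 days, and the fat was removed on day 4 at an age of 6.5 weeks. There were 3 arrays of wild type after vehicle, 4 of wild type after αGalCer, 3 of CD1d knockout after vehicle and 3 of CD1d knockout after αGalCer. CD1d presents lipids to natural killer T (NKT) cells, and αGalCer is a lipid that activates these cells through CD1d. Mice without CD1d lack NKT cells, so the knockout asks whether a change after the injection needs CD1d. The arrays measured whole fat, in which fewer cells of a type and less RNA per cell cannot be told apart. Samples of a group are labelled as replicates, with no word on whether each is a separate animal. So p-values cover only the spread seen between these samples, part of which may be technical.

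Proteins that enter the ER are folded by chaperones, and the unfolded protein response adjusts this folding capacity to the load. It has 3 known branches, named for the membrane sensors IRE1α (encoded by Ern1), PERK (Eif2ak3) and ATF6. IRE1α splices the mRNA of Xbp1, ATF6 is cleaved into a transcription factor, and PERK phosphorylates eIF2α, which favours translation of ATF4. The factors XBP1 and ATF6 are known to raise genes of chaperones and of ER-associated degradation, and ATF4 genes of amino acid supply and, with CHOP, of cell death. Cells that secrete much protein, such as plasma cells and adipocytes that release adiponectin, rely on this system. Arrays of this kind read the amount of RNA and read neither Xbp1 splicing, nor ATF6 cleavage, nor translation of Atf4.

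Every value below is a log2 expression value, so a difference of 1 is a doubling. A change is the difference of group means in a limma model of all 13 arrays, given with its standard error (SE), and a gene was called at a Benjamini-Hochberg adjusted p under 0.05 over all 18818 genes. Cd1d1 lay between 9.08 and 10.86 in the 7 wild type arrays and between 2.64 and 4.03 in the 6 knockout arrays, so the arrays fit their genotype labels. Of 10 adipocyte marker genes 9 were measured, and their mean lay between 12 and 12.22 in the 9 arrays other than wild type after αGalCer. The mean of a skeletal muscle list stood apart in 3 knockout arrays, at 9.05 and 7.26 in replicates 1 and 2 after vehicle and at 9.25 in replicate 3 after αGalCer, against 5.04 to 6.01 in the other arrays. The mean of an epididymis and ductal epithelium list was raised in vehicle arrays, at 6.62, 5.59 and 6.92 in wild type and at 7.25, 5.95 and 5.14 in knockout, against 4.89 to 5.13 and 4.79 to 4.90 after αGalCer. The level of this list therefore differed between vehicle and αGalCer arrays in both genotypes, and the reason was not tested. In wild type 6 of its 12 measured genes were called lower (median change -0.70), where 22.0% of all genes were. In knockout 0 were called, as over all genes, and the median was -1.35. There, 6 had an unadjusted p under 0.05 by limma, against 6.81% of all genes. For 21 of the 31 genes the value of knockout vehicle replicate 1 lay outside the range of the other 8 arrays that were not wild type after αGalCer. For each of those 8 arrays, judged in the same way, this held for 2 to 8 genes. The part of these muscle and epididymis genes in the results was not tested beyond leaving arrays out: the 3 knockout arrays with raised muscle genes, and these together with wild type vehicle replicate 3. Both leave 1 knockout array after vehicle, which the model then assumes to vary like the other groups. Wild type vehicle replicate 1, at 6.62 for the epididymis list, was kept in both, so they do not remove every array with raised epididymis genes.

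The promoters of several of these genes carry the ER stress response element (ERSE), a known site for ATF6 and XBP1 together with NF-Y, which binds CCAAT. The stretches below show it in genes that rose, in Canx and Syvn1, which were not called, and, as the shorter ERSE-II, in Herpud1, which fell. They come from RefSeq (GRCm38.p6), read 5′ to 3′ on the gene's strand, and the capitals mark the letters searched for. Their places are chr2:34772010-34772058 on the plus strand, chr12:17266476-17266524 on the plus strand, chr15:88819505-88819553 on the plus strand, chr8:84847060-84847108 on the minus strand, chr10:86705518-86705671 on the minus strand, chr11:50325785-50325833 on the minus strand, chr19:6046517-6046565 on the plus strand and chr8:94386362-94386402 on the plus strand. All 8 stretches end before the annotated start of transcription.
Hspa5: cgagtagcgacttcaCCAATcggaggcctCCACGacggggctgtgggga
Pdia6: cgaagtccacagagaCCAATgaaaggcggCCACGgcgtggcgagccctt
Creld2: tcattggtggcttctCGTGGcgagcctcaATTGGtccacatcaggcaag
Calr: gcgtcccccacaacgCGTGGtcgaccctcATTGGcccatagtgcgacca
Hsp90b1: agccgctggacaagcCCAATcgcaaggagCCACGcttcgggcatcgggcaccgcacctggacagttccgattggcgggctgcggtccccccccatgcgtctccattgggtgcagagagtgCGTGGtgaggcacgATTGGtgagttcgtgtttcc
Canx: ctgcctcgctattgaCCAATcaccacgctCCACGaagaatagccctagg
Syvn1: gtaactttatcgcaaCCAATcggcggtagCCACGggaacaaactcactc
Herpud1: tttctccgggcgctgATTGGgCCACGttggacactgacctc
ERSE was searched on both strands as CCAAT, 9 bases of any kind and CCACG, and reads CGTGG and ATTGG with the same gap on the other strand, as in Calr and Creld2. ERSE-II was searched as ATTGG, 1 base and CCACG.

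RefSeq windows of 300 bases, 250 before the start of transcription and 50 after it, were at hand for 29 of the 33 genes, all but Atf6, Derl1, Hyou1 and Manf. ERSE stood in 9 of these 29 (31.0%), against 37 of 27025 genes with a window (0.137%) and 0.119% of all 32851 windows. The 9 genes were Hspa5, Hsp90b1, Dnajc3, Calr, Canx, Pdia6, Syvn1, Derl3 and Creld2, and Hsp90b1 held 2 copies. ERSE is known from the promoters of ER chaperone genes, so its share in a list of such genes is a description of the list. Of the genes that rose after αGalCer in wild type, 7 of the 15 with a window held ERSE, and of those not called 2 of 11 did. Sdf2l1, the gene with the largest rise, and Dnajb11 held no exact match to ERSE in their windows, and Dnajb11 held ERSE-II, as did Herpud1 and 12 of all genes (0.0444%). The ERSE-II of Dnajb11 lay after the start of transcription, at bases 8 to 18, and that of Herpud1 before it, at -52 to -42. The element TGACGTGG, whose end is the reverse complement of the CCACG of ERSE, was in 0 of 29 windows and in 0.714% of genes. TGATGNAA, the core of the C/EBP-ATF response element bound by ATF4, was in 4 of 29 (13.8%), namely Asns, Chac1, Trib3 and Herpud1, and in 4.51% of genes. The match of Trib3 lay after the start of transcription, at bases 15 to 22, and the others lay before it. CCAAT by itself, which every ERSE contains, was in 23 of 29 (79.3%) and in 41.1% of genes. A match describes the letters of these windows and is not a measured binding site.

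After αGalCer the wild type fat had more RNA of most ER chaperones and of the secreted and translocon genes of the list. Of the 31 measured genes, 18 rose, where 19.8% of all genes tested were called higher. Another 2 fell, Herpud1 and Derl1, where 22.0% of all genes were called lower, and 11 were not called. The median change over the list was 0.41, against -0.02 over all genes. The rises ranged from 0.33 for P4hb to 2.53 for Sdf2l1, with 5 genes up by 2-fold or more and 7 of the 18 up by less than 1.5-fold. In 17 of the genes called higher and in both called lower, the arrays after αGalCer did not overlap those after vehicle, where 21.7% of all genes were apart in the upward direction and 25.0% in the downward direction. The rises were unequal over the roles within the list: 6 of 7 HSP70 and HSP90 chaperones and partners, 4 of 5 lectin chaperones and disulfide isomerases, all 3 secreted and translocon genes, 3 of 5 sensors and transcription factors, 2 of 7 degradation genes and 0 of 4 targets of ATF4 and CHOP.

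**Figure D1:**
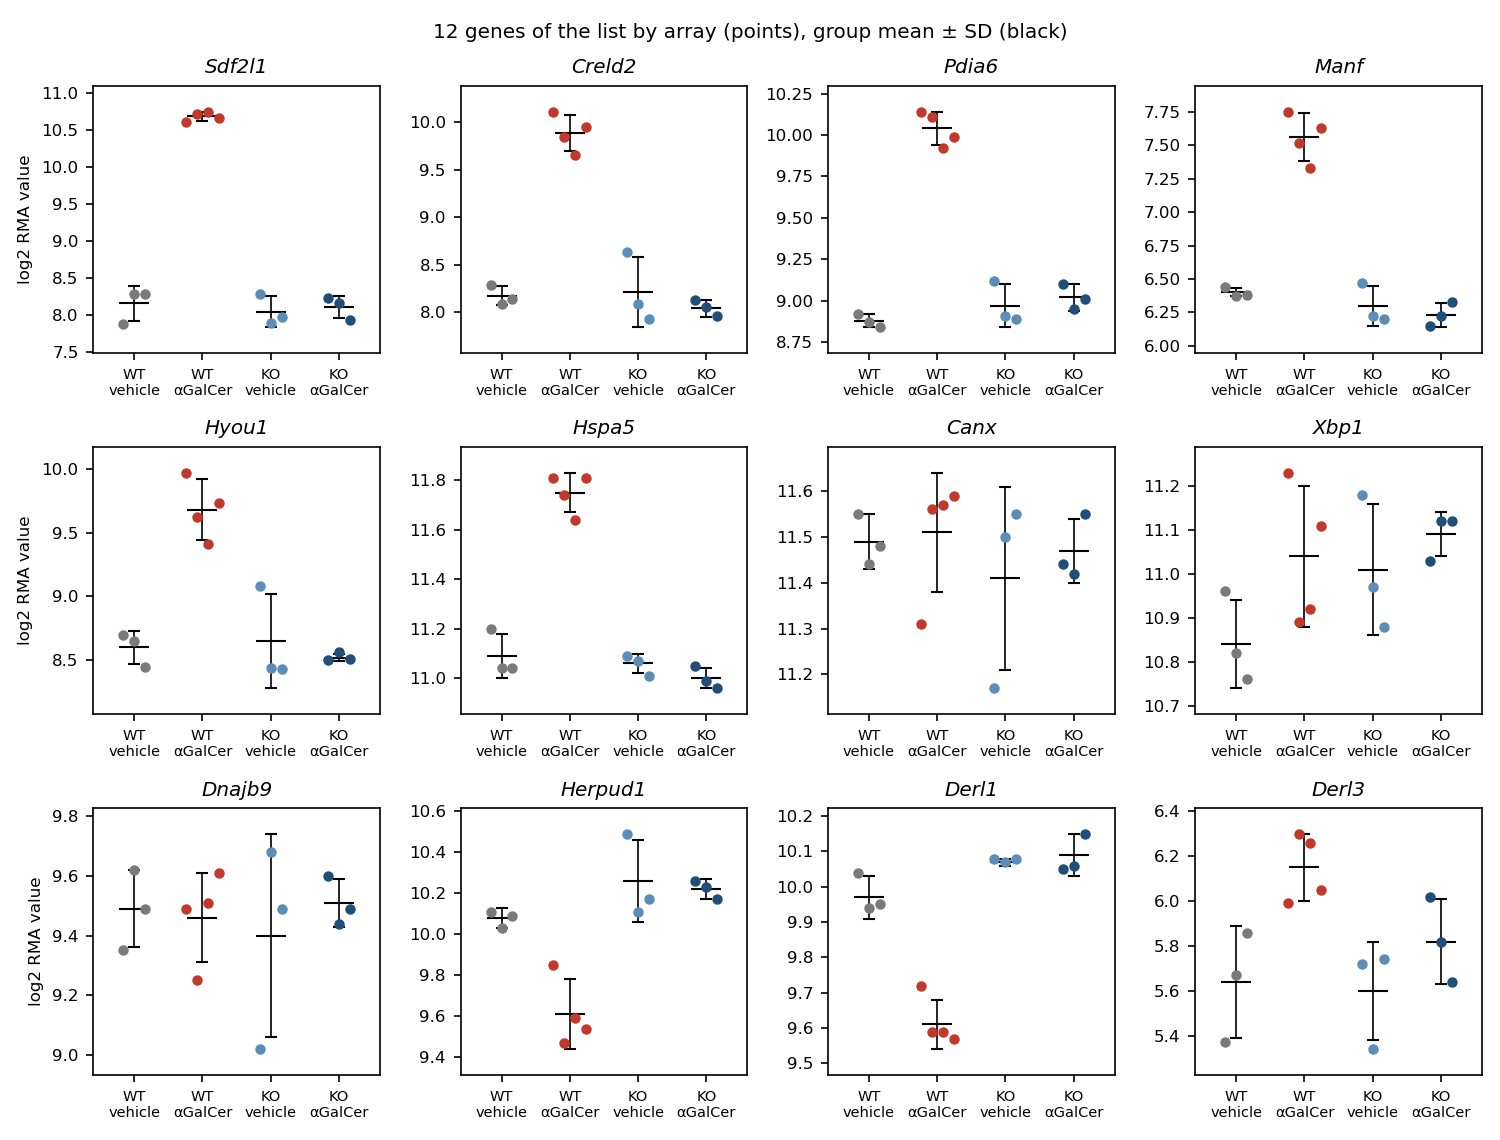
Log2 values of 12 genes of the list in the 13 arrays, 1 panel per gene and 1 point per array, by group on the x axis (WT wild type, KO CD1d knockout), with black bars for the group mean and SD; the y axes differ and do not start at 0. The 4 wild type points after αGalCer lie above all 9 others for Sdf2l1, Creld2, Pdia6, Manf, Hyou1 and Hspa5. They lie below them for Herpud1 and Derl1 and overlap them for Canx, Xbp1, Dnajb9 and Derl3. For Canx, replicate 1 lies low at 11.31, and the others of its group, at 11.56 to 11.59, lie just above the remaining arrays.

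Among the sensors, Ern1, the kinase and RNase IRE1α, was at 8.06, 8.00 and 8.31 in the wild type arrays after vehicle and at 8.88, 8.80, 8.68 and 8.75 after αGalCer. All 4 treated arrays were above the untreated ones, and Ern1 rose by 0.66 (SE 0.13, adjusted p = 0.00115, 1.58-fold). Replicate 1 of knockout after vehicle, at 8.57, was the nearest of the other arrays. Atf6, which encodes the sensor that becomes a transcription factor after cleavage, was at 9.16, 9.27 and 9.24 after vehicle and at 9.52, 9.75, 9.65 and 9.62 after αGalCer. Its groups did not overlap either, with a rise of 0.41 (SE 0.08, adjusted p = 0.000592, 1.33-fold). Eif2ak3, the kinase PERK, was not called, with a change of 0.17 (95% interval -0.01 to 0.34, adjusted p = 0.127).

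Xbp1, whose spliced mRNA encodes the active transcription factor, was at 10.96, 10.82 and 10.76 after vehicle and at 11.23, 10.89, 10.92 and 11.11 after αGalCer in wild type. The groups overlapped and the change of 0.19 was not called (95% interval -0.02 to 0.40, adjusted p = 0.133), although with array weights it was (0.22, adjusted p = 0.0298). Atf4, the transcription factor downstream of PERK, was at 7.10, 6.82 and 6.70 after vehicle and at 7.71, 7.32, 6.99 and 7.30 after αGalCer. Replicate 3 after αGalCer lay below the highest vehicle array, so Atf4 was the only gene of the list that was called while its groups overlapped. Its rise of 0.46 (SE 0.15, adjusted p = 0.0264, 1.37-fold) was the call with the largest adjusted p among the 20. It was not called without wild type vehicle replicate 2 (adjusted p = 0.0771), vehicle replicate 3 (0.117) or αGalCer replicate 1 (0.0607). The call was also lost when only the wild type groups were fitted (0.0689), without the 3 arrays with raised muscle genes (0.0516) and without the 4 arrays with raised muscle or epididymis genes (0.37, adjusted p = 0.173).

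The HSP70 and HSP90 chaperones of the ER lumen and their partners rose in 6 of 7 cases. Sdf2l1, a partner of the co-chaperone encoded by Dnajb11, had the largest change of the list. It was at 7.87, 8.28 and 8.28 in wild type after vehicle and at 10.60, 10.71, 10.74 and 10.66 after αGalCer. The treated arrays lay close together and far above every untreated one, and Sdf2l1 rose by 2.53 (SE 0.12, adjusted p = 3.95e-08), which is 5.78-fold. In knockout it was at 8.28, 7.88 and 7.97 after vehicle and at 8.23, 8.15 and 7.93 after αGalCer, which is the range of the wild type arrays after vehicle.

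Hspa5 encodes BiP, the HSP70 chaperone that binds unfolded chains and also the lumenal parts of the sensors. Its values were 11.20, 11.04 and 11.04 after vehicle and 11.81, 11.74, 11.64 and 11.81 after αGalCer in wild type. The groups were apart, with a rise of 0.66 (SE 0.06, adjusted p = 2.65e-06, 1.57-fold). Hyou1, an HSP70-like protein that exchanges the nucleotide of BiP, was at 8.70, 8.65 and 8.45 after vehicle and at 9.97, 9.62, 9.41 and 9.73 after αGalCer. The treated arrays differed among themselves more than those of Hspa5 but all lay above the untreated ones, and Hyou1 rose by 1.08 (SE 0.16, adjusted p = 0.000106, 2.12-fold). Replicate 1 of knockout after vehicle, at 9.08, was the highest of the other 9 arrays for Hyou1.

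Of the J-domain co-chaperones, which deliver clients to BiP and stimulate its ATPase, 2 rose and 1 was not called. Dnajb11 was at 8.48, 8.32 and 8.31 after vehicle and at 9.40, 9.34, 9.25 and 9.37 after αGalCer, with the groups well apart, and rose by 0.97 (SE 0.08, adjusted p = 9.08e-07, 1.96-fold). Dnajc3, known as P58IPK, was at 9.80, 9.68 and 9.72 after vehicle and at 9.93, 10.09, 10.18 and 10.13 after αGalCer, and rose by 0.35 (SE 0.09, adjusted p = 0.00906) with no overlap. The lowest treated array of Dnajc3 was close to the vehicle arrays. Dnajb9, a co-chaperone known as a target of XBP1 and a repressor of IRE1α, was at 9.35, 9.62 and 9.49 after vehicle and at 9.49, 9.25, 9.51 and 9.61 after αGalCer. These values are mixed between the groups, and the change was -0.02 (95% interval -0.32 to 0.28, adjusted p = 0.919). The 95% interval of Dnajc3, at 0.14 to 0.55, overlaps this one, and these genes were not tested against each other.

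Hsp90b1, the ER member of the HSP90 family known as GRP94, was at 10.27, 10.60 and 10.54 after vehicle and at 10.71, 11.11, 11.09 and 11.15 after αGalCer. In each group 1 array lay below the others, the groups did not overlap, and the rise was 0.54 (SE 0.13, adjusted p = 0.00527, 1.46-fold).

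Among lectin chaperones and disulfide isomerases, the pair of homologous lectins parted. Calr encodes calreticulin, the soluble lectin that holds glycoproteins during folding, and was at 11.23, 11.20 and 11.21 after vehicle and at 11.91, 11.73, 11.83 and 11.85 after αGalCer in wild type. The arrays of each group were close together and apart from the other group, and Calr rose by 0.62 (SE 0.07, adjusted p = 9.5e-06, 1.53-fold). Canx, the membrane-bound homologue calnexin, was at 11.55, 11.44 and 11.48 after vehicle and at 11.31, 11.56, 11.57 and 11.59 after αGalCer. The lowest of the 7 was replicate 1 after αGalCer, and the change was 0.02 (95% interval -0.19 to 0.22, adjusted p = 0.916). Both promoters hold an ERSE, as printed above.

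The disulfide isomerases, which form and rearrange disulfide bonds, all rose among those measured. Pdia6 was at 8.92, 8.87 and 8.84 after vehicle and at 10.14, 10.11, 9.92 and 9.99 after αGalCer, and rose by 1.16 (SE 0.08, adjusted p = 2.73e-07, 2.24-fold) with no overlap. Pdia3, the partner of both lectins, was at 10.60, 10.88 and 10.71 after vehicle and at 11.24, 11.21, 11.56 and 11.43 after αGalCer, a rise of 0.63 (SE 0.11, adjusted p = 0.000299). The arrays of Pdia3 were apart as well. P4hb, the founding member of the family, was at 10.83, 10.74 and 10.62 after vehicle and at 11.13, 11.10, 10.91 and 11.10 after αGalCer. Its groups did not overlap, although replicate 3 was close to the vehicle arrays, and its rise of 0.33 (SE 0.09, adjusted p = 0.00714) was the smallest called in the list.

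The genes of ER-associated degradation, which moves misfolded proteins to the cytosol for the proteasome, did not move together. Derl2 and Derl3 rose, Derl1 and Herpud1 fell, and Sel1l, Syvn1 and Edem1 were not called. For so few genes, 2 of 7 higher and 2 of 7 lower is near the 19.8% and 22.0% over all genes. The derlins are related membrane proteins of the channel that exports clients. Derl1 was at 10.04, 9.94 and 9.95 in wild type after vehicle and at 9.72, 9.59, 9.59 and 9.57 after αGalCer. All 4 treated arrays were below every other array, knockout included, and Derl1 fell by 0.36 (SE 0.06, adjusted p = 0.000387, 1.28-fold lower). Derl2 went from 7.94, 8.21 and 7.86 to 8.42, 8.46, 8.35 and 8.34, a rise of 0.39 (SE 0.10, adjusted p = 0.00764) with the groups apart, which was not called without the 4 arrays with raised muscle or epididymis genes (0.31, adjusted p = 0.0635). Derl3 went from 5.37, 5.67 and 5.86 to 5.99, 6.30, 6.26 and 6.05, a rise of 0.52 (SE 0.15, adjusted p = 0.0141). Its groups were apart within wild type, but a knockout array after αGalCer reached 6.02, and without wild type vehicle replicate 1 the rise of 0.38 was not called (adjusted p = 0.075).

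Herpud1 encodes a membrane protein that assembles the degradation complex around the ligase of Syvn1 and is known as a gene induced by ER stress. It was at 10.11, 10.03 and 10.09 after vehicle and at 9.85, 9.47, 9.59 and 9.54 after αGalCer in wild type. The treated arrays were below all other arrays, and Herpud1 fell by 0.47 (SE 0.10, adjusted p = 0.00266, 1.38-fold lower). Syvn1, the ubiquitin ligase HRD1, changed by -0.13 (adjusted p = 0.365), Sel1l, its adaptor, by 0.08 (adjusted p = 0.341), and Edem1, which helps trim mannose from clients, by 0.10 (adjusted p = 0.325). For these 3 genes the groups overlapped.

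All 3 secreted and translocon genes rose. Creld2, an ER protein that can be secreted and is known from ER stress, was at 8.28, 8.08 and 8.14 after vehicle and at 10.11, 9.84, 9.65 and 9.95 after αGalCer. The lowest treated array was more than 1 above the highest untreated wild type array, and Creld2 rose by 1.72 (SE 0.15, adjusted p = 1.41e-06, 3.30-fold). Manf, a secreted neurotrophic factor that binds BiP, was at 6.44, 6.37 and 6.38 after vehicle and at 7.75, 7.52, 7.33 and 7.63 after αGalCer. Its groups did not overlap, with a rise of 1.16 (SE 0.11, adjusted p = 2.77e-06, 2.23-fold). Sec61b, the small subunit of the channel through which chains enter the ER, was at 6.85, 6.90 and 6.95 after vehicle and at 7.43, 7.46, 7.40 and 7.68 after αGalCer. It rose by 0.59 (SE 0.09, adjusted p = 0.000115, 1.51-fold), and its other 2 probe sets, which were not used for the call, changed by 0.51 and 0.51.

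The 4 targets of ATF4 and CHOP were the only role with no call in wild type. Over all genes 19.8% were called higher and 22.0% lower, and 4 genes are too few to set the role apart. In the wider list of stress response genes and ATF4 targets described below, 13 of 28 rose and 8 fell. By limma 1 of the 4 targets, Trib3, had an unadjusted p under 0.05, against 47.9% of all genes. Trib3, a pseudokinase that restrains AKT, was at 5.54, 5.71 and 5.79 after vehicle and at 6.91, 6.54, 5.58 and 5.89 after αGalCer. The first 2 treated arrays were high and the other 2 near the vehicle level, so the change of 0.55 was not called (SE 0.25, adjusted p = 0.0969). Without wild type αGalCer replicate 3 it was 0.77 and called (adjusted p = 0.0112). Chac1, which degrades glutathione, was at 6.99, 7.50 and 7.16 after vehicle and at 8.15, 7.32, 6.59 and 7.26 after αGalCer. The treated arrays held both the highest and the lowest of the 7 values, and the change was 0.11 (95% interval -0.51 to 0.73, adjusted p = 0.802). Asns, which makes asparagine, changed by 0.19 (adjusted p = 0.488), and Ppp1r15a, the phosphatase subunit GADD34 that reverses eIF2α phosphorylation, by 0.27 (adjusted p = 0.146).

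**Figure D2:**
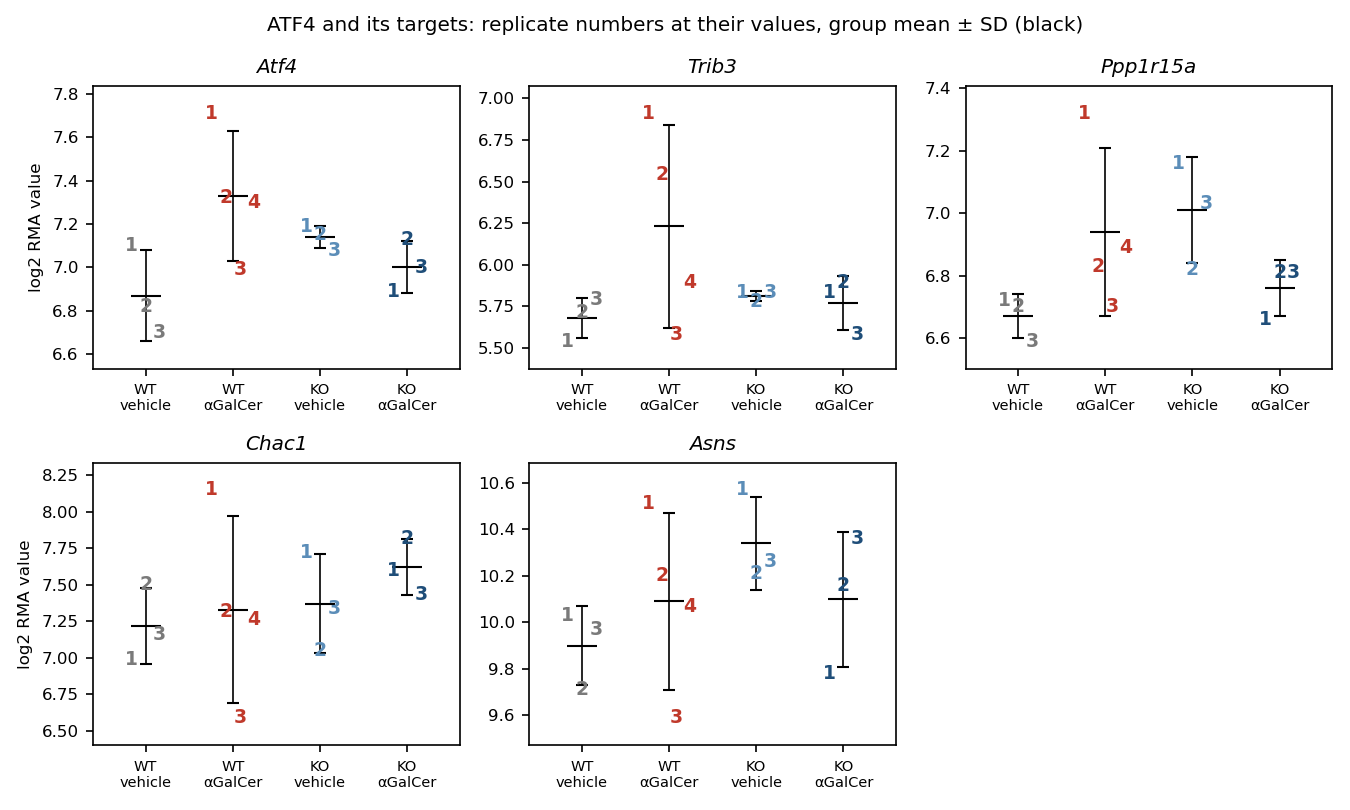
Log2 values of Atf4, Trib3, Ppp1r15a, Chac1 and Asns in the 13 arrays by group (WT wild type, KO CD1d knockout), 1 panel per gene, with each array drawn as its replicate number and black bars for the group mean and SD; the y axes differ and do not start at 0. In wild type after αGalCer, replicate 1 was the highest and replicate 3 the lowest for all 5 genes, and the group overlapped that after vehicle for each.

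Atf4 and these 4 targets varied together over the wild type arrays after αGalCer. Replicate 1 was the highest and replicate 3 the lowest of the 4 for all 5 genes. Over all 31 genes, replicate 1 was the highest in 18 and the lowest in 7, and replicate 3 the highest in 4 and the lowest in 17. The spread within groups, as the residual SD of the model, was 0.43 for Chac1, 0.36 for Trib3 and 0.29 for Asns, the 3 largest of the list, against 0.05 for Sel1l and Derl1, the smallest.

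In knockout fat no gene of the list was called after αGalCer in either direction, where 0% of all genes tested were called higher and 0% lower. The changes ran from -0.28 for Sec61b to 0.25 for Chac1, with a median of -0.02. By limma 1 gene of the 31 had an unadjusted p under 0.05, against 1281 of all 18818 genes, and with array weights the same gene was called. That gene was Sec61b, at 6.90, 6.99 and 6.99 after vehicle and at 6.71, 6.70 and 6.65 after αGalCer. The groups did not overlap, with the treated arrays lower, and the change of -0.28 had an adjusted p of 0.72 (95% interval -0.48 to -0.07). Ppp1r15a (-0.25) was apart in the same direction, so 2 genes of the list were apart downward and 0 upward. Over all 18818 genes, 1137 were apart downward and 1466 upward. Creld2 was at 8.63, 8.08 and 7.93 in knockout after vehicle and at 8.13, 8.05 and 7.96 after αGalCer, and Hspa5 at 11.09, 11.07 and 11.01 and at 11.05, 10.99 and 10.96. Derl1 was at 10.08, 10.07 and 10.08 and then at 10.05, 10.06 and 10.15, and Herpud1 at 10.49, 10.11 and 10.17 and then at 10.26, 10.23 and 10.17. In all 4 genes the groups overlapped, and replicate 1 after vehicle was the high array for Creld2 and Herpud1. For the largest rises of wild type, the whole knockout interval lay below the wild type change. For Sdf2l1 the knockout change was 0.06 (95% interval -0.23 to 0.35), for Creld2 -0.17 (-0.52 to 0.18), for Pdia6 0.05 (-0.14 to 0.24) and for Hspa5 -0.06 (-0.20 to 0.09). For Hyou1 the interval ran from -0.49 to 0.25, and for Manf from -0.32 to 0.19.

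The αGalCer effects of the genotypes were compared directly, as the wild type change minus the knockout change in the same model. Of the 31 genes, 14 had the higher change in wild type, where 13.9% of all genes tested were called in this direction. Derl1 had the lower one, at -0.37 (SE 0.09, adjusted p = 0.00748), where 14.3% of all genes were. This comparison uses the same wild type arrays as the wild type change, so it is not a separate replication of it. The difference was 2.47 for Sdf2l1 (SE 0.18, adjusted p = 4.22e-06), 1.89 for Creld2 (SE 0.22, adjusted p = 5.51e-05) and 1.22 for Manf (SE 0.16, adjusted p = 0.000125). The chaperones Hyou1, Dnajb11 and Hspa5 followed at 1.21, 0.99 and 0.71, the isomerases Pdia6, Pdia3 and P4hb at 1.11, 0.61 and 0.43, and Calr at 0.67. For Sec61b the difference of 0.87 (SE 0.13, adjusted p = 0.000264) was larger than its wild type change, since the knockout value was below 0. Ern1 differed by 0.88 (SE 0.19, adjusted p = 0.00361) and Atf6 by 0.34 (SE 0.11, adjusted p = 0.0336).

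**Figure D3:**
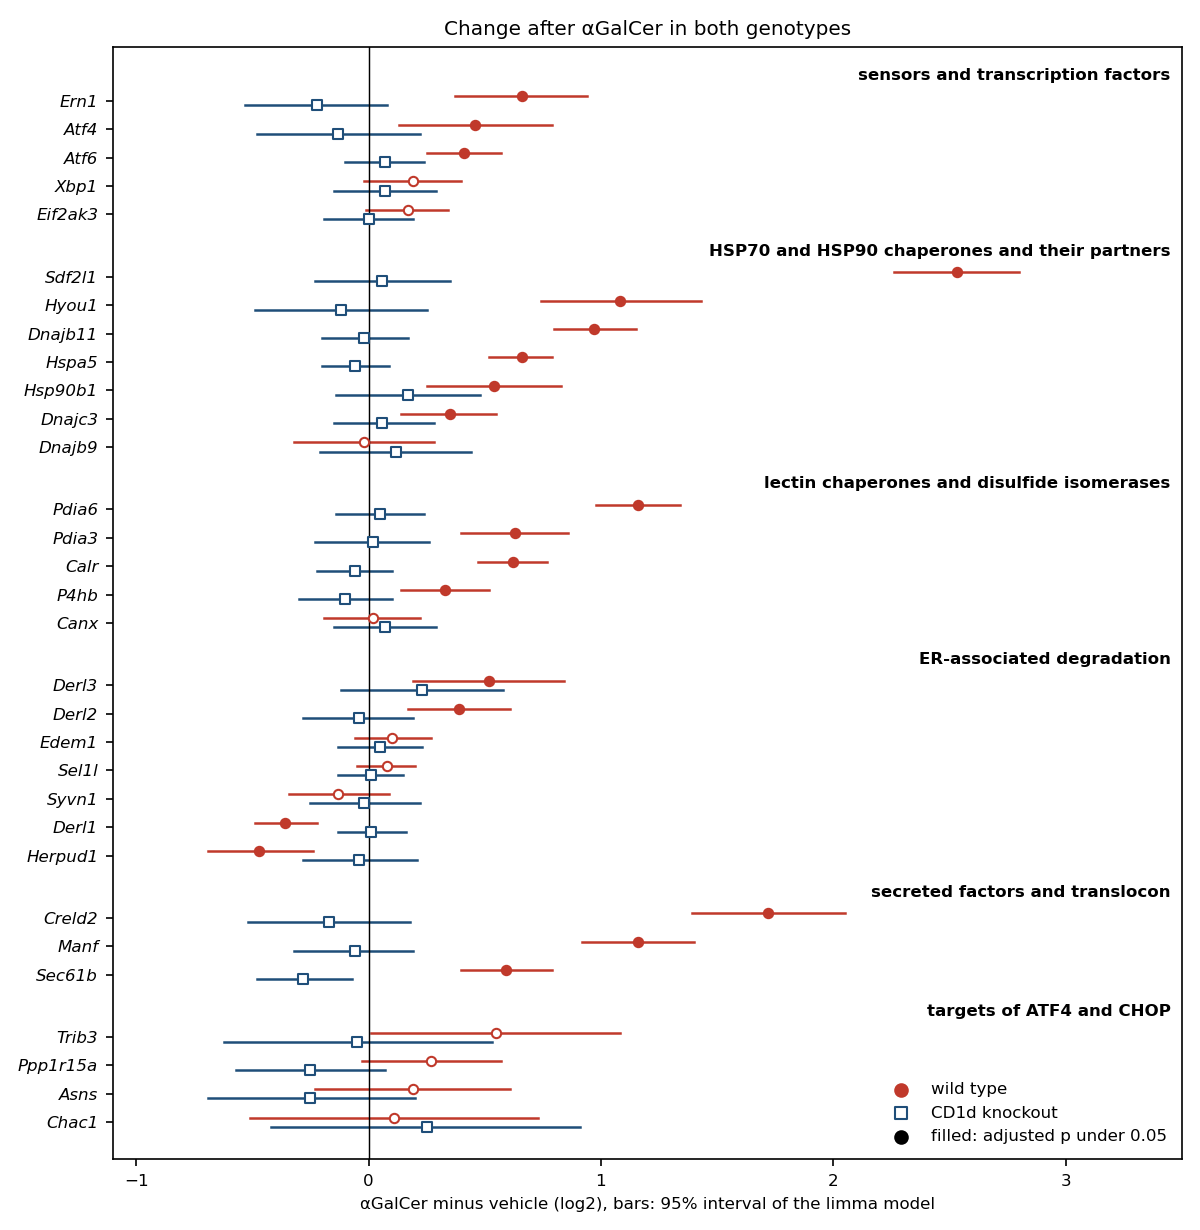
Change after αGalCer of each of the 31 genes in wild type (circles) and CD1d knockout (squares) on the log2 scale, with genes in rows by role, bars for the 95% interval and filled symbols for an adjusted p under 0.05. The wild type points of Sdf2l1, Creld2, Pdia6, Manf and Hyou1 lie beyond 1, and all knockout points are open and lie between -0.28 and 0.25.

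Of the 20 genes called in wild type, 5 were not called for the difference of effects. These were Herpud1 (-0.43, adjusted p = 0.0525), Atf4 (0.59, adjusted p = 0.0646), Dnajc3 (0.28, adjusted p = 0.16), Hsp90b1 (0.37, adjusted p = 0.204) and Derl3 (0.29, adjusted p = 0.403). For these genes a larger effect in wild type than in knockout was not shown. Replicate 1 of knockout after vehicle bore on 3 of them: without it Herpud1 (-0.55, adjusted p = 0.0071), Dnajc3 (0.39, adjusted p = 0.0187) and Hsp90b1 (0.51, adjusted p = 0.0426) were called. This array had raised muscle (9.05) and epididymis (7.25) list means and was out of range for 21 of the 31 genes, as given above. Leaving it out with the other arrays of raised muscle genes keeps a single knockout vehicle array, so that fit cannot decide whether these calls hold. Herpud1 was also called without wild type αGalCer replicate 1 (-0.51, adjusted p = 0.012). Without wild type αGalCer replicate 3 the difference was called for Atf4 (0.71, adjusted p = 0.0184) and Ppp1r15a (0.59, adjusted p = 0.0433), and without wild type vehicle replicate 1 for Atf4 (0.71, adjusted p = 0.0345). Some settings that kept all arrays also gave calls. With array weights these were Herpud1 (adjusted p = 0.00031), Hsp90b1 (0.00286), Dnajc3 (0.00343) and Atf4 (0.0137). With array weights 17.8% of all genes had the higher effect in wild type and 20.6% the lower. Atf4 was also called when dim genes were left out (0.59, adjusted p = 0.0461). Derl3 gained no call in any setting. The calls of Derl2 (0.43, adjusted p = 0.0478), Atf6 and P4hb (adjusted p = 0.0219) were the least firm. Leaving out any of 10 of the 13 arrays took the call of Derl2 (adjusted p from 0.0599 to 0.132), with wild type vehicle replicate 2, knockout vehicle replicate 3 and knockout αGalCer replicate 1 as the exceptions. For Atf6 any of 9 arrays did (adjusted p from 0.0522 to 0.0937), the exceptions being wild type vehicle replicate 2 and replicate 1 of the other 3 groups. P4hb was not called without wild type vehicle replicate 3 (adjusted p = 0.0627) or without knockout αGalCer replicate 2 (0.0567) or 3 (0.055). Derl2 came down to 0.27 without the 4 arrays with raised muscle or epididymis genes (adjusted p = 0.436). Without those 4 arrays Atf6 was at 0.42 (adjusted p = 0.118), P4hb at 0.24 (adjusted p = 0.35), Pdia3 at 0.55 (adjusted p = 0.136) and Derl1 at -0.35 (adjusted p = 0.131), all uncalled. In that fit the knockout effect rests on a single array after vehicle.

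Between the genotypes after vehicle, no gene of the list was called, where 0.0903% of all genes tested were higher in knockout and 0.0213% lower. By limma 1 of the 31 genes had an unadjusted p under 0.05, against 1258 of all 18818 genes (6.69%). It was Ppp1r15a, with knockout minus wild type at 0.34 (95% interval 0.02 to 0.66, adjusted p = 0.72). Asns came next, at 0.44 (95% interval -0.01 to 0.89, adjusted p = 0.753). Its knockout arrays were at 10.57, 10.21 and 10.26 and its wild type arrays at 10.03, 9.71 and 9.97, so the groups were apart although the change was not called. In all, 4 genes of the list were apart with knockout higher, namely Asns, Ppp1r15a, Eif2ak3 and Derl1. Another 2, Dnajb11 and Dnajc3, were apart with knockout lower. Over all 18818 genes, 1388 were apart with knockout higher and 716 with knockout lower.

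After αGalCer, 16 genes of the list were lower in knockout than in wild type, where 19.2% of all genes tested were, and Derl1 and Herpud1 were higher, where 21.9% of all genes were. This comparison uses the same wild type arrays after αGalCer as the wild type change and the difference of effects. Knockout minus wild type was -2.58 for Sdf2l1 (SE 0.12, adjusted p = 3.31e-08), -1.85 for Creld2, -1.33 for Manf, -1.16 for Hyou1, -1.13 for Dnajb11 and -1.02 for Pdia6. It was 0.61 for Herpud1 (SE 0.10, adjusted p = 0.000348) and 0.47 for Derl1 (SE 0.06, adjusted p = 4e-05). Atf4 (-0.33, adjusted p = 0.105) and Derl3 (-0.33, adjusted p = 0.106) were not called. Without wild type αGalCer replicate 3, Atf4 (-0.44, adjusted p = 0.0243) and Trib3 (-0.68, adjusted p = 0.0212) were called lower. Derl2 (-0.29, adjusted p = 0.0355) lost its call without wild type αGalCer replicate 1, 2 or 3 or knockout αGalCer replicate 2 or 3, with adjusted p from 0.051 to 0.175.

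Genes of the same pathways outside the list were taken from 5 wider lists. In knockout 0 of their genes were called by limma after αGalCer. An unadjusted p under 0.05 was found for 1 of 29 folding and redox genes and 1 of 22 degradation genes. It was found for 1 of 28 stress response genes and 0 genes of the other lists, against 6.81% of all genes tested. In wild type the counts are to be read against the 19.8% of all genes called higher and the 22.0% called lower. There, 14 of 29 other folding and redox genes rose and 5 fell, with a median change of 0.24. The largest rises were those of the oxidases Ero1b (1.30) and Ero1a (0.92), which recharge the disulfide isomerases. The largest falls were those of Uggt2, a folding sensor of glycoproteins, and Fkbp7, a prolyl isomerase (both -0.76). Of 35 genes of the translocon, signal peptidase and oligosaccharyl transferase, 15 rose and 2 fell (median 0.21), led by the signal peptidase subunits Spcs3 (1.19) and Sec11c (1.13), while Sec61a2 (-0.79) and Stt3b (-0.47) fell.

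Of the other 22 degradation genes 4 rose and 6 fell, with a median of -0.04, shares close to those over all genes. Edem2, which trims mannose, rose by 0.63, and Aup1 and Tram1, a translocon protein that was counted in this list, by 0.38 each. Ngly1, which removes glycans from exported clients, changed by -0.68 and Ufd1, a cofactor of the segregase p97, by -0.57, and both were called. Of 28 other genes of the integrated stress response and targets of ATF4, 13 rose and 8 fell (median 0.20). The cystine transporter Slc7a11 (2.85) and the transcription factor Atf3 (2.66) had the largest rises, and Vldlr (-2.13) and Stc2 (-1.72) the largest falls. Of 21 stress transducers and ER cell death genes, 7 rose and 4 fell (median 0.06), the latter close to the share over all genes, with Bcl2l11 (2.16) and Bak1 (1.45), both promoters of apoptosis, at the top and Map3k5 (-0.77) and Creb3l2 (-0.76) at the bottom.

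**Figure D4:**
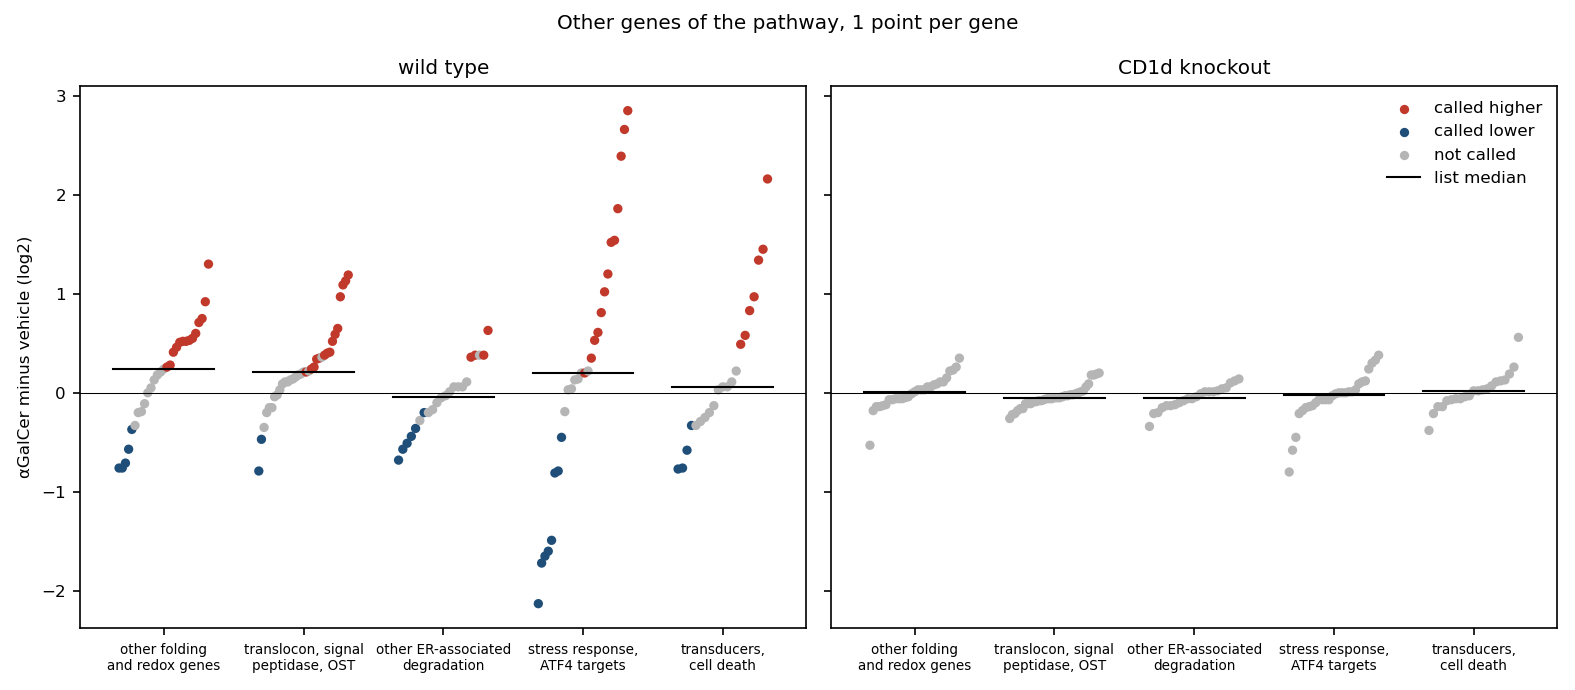
Change after αGalCer on the log2 scale of each gene of the 5 wider lists, in wild type and in CD1d knockout, with 1 point per gene in rank order within its list, called genes in colour and a black line at each list's median. In wild type the medians lie between -0.04 and 0.24 and the genes of the stress response list spread from -2.13 to 2.85, and in knockout no point is coloured.

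Marker genes of cell types moved in the same arrays. Their counts in wild type are to be read against the 19.8% of all genes called higher and the 22.0% called lower. In wild type after αGalCer, 9 of 10 macrophage markers rose, and their mean went from between 8.37 and 9.17 over the vehicle arrays to between 10.52 and 10.74. All 10 T and NK cell markers rose, from a mean of 5.18 to 5.51 to one of 8.01 to 8.62, and all 7 genes of dividing cells, from 5.81 to 6.59 to 8.33 to 9.16. All 9 adipocyte markers fell, from a mean of 12 to 12.12 to one of 10.22 to 10.99, as did 8 of 8 endothelial and 5 of 8 fibroblast and progenitor markers, while 6 of 8 dendritic cell markers rose and 1 fell. Of 11 B and plasma cell genes 4 rose, and their mean went from between 5.57 and 5.66 to between 5.94 and 6.12. Among them Prdm1 (1.39), Sdc1 (1.25) and Irf4 (1.21), which mark plasma cells and activated lymphocytes, rose, while Jchain (-0.10) and Tnfrsf17 (-0.25), known from plasma cells, were not called. In knockout 0 markers of these lists were called by limma. An unadjusted p under 0.05 was found for 2 of the 11 B and plasma cell genes. It was found for 1 each of the macrophage, endothelial and fibroblast lists, against 6.81% of all genes. Neither cell numbers nor changes per cell were measured, and the part of the cell type markers' changes in those of the ER genes was not tested.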

How the data were processed

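The authors deposited log2 expression values per probe set, made with RMA per the submitters' processing notes; the sources used here give neither software version nor genome build. RMA quantile normalises arrays and compresses dim probe sets, so small levels understate a change. The platform annotation named the probe sets, with symbols updated through RefSeq (GRCm38.p6). Of 35556 probe sets 21218 had 1 symbol, 1881 several and 12457 none. The brightest probe set stood for a gene, and no filter on dim genes was used. Detection calls were not used here, and the number of arrays limits the precision.

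In R 4.3.3, limma 3.58.1 was fitted with a mean for each group, 9 residual degrees of freedom and eBayes with an intensity trend, for 5 contrasts, two-sided, with Benjamini-Hochberg adjustment over 18818 genes. The model was tested on simulated data with known changes. It recovered 34% of changes of 0.5 and 87% of changes of 1 in wild type. For the difference of effects it recovered 12% and 63%. Far fewer genes were changed in the simulation than were called in wild type here, so these shares need not hold for the data.

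All measured genes of the list are named. From each wider list the 2 largest called rises and falls were named. The genes and lists were chosen with earlier results of these data known. The ERSE-II search was added after the ERSE results were seen. Alternatives covered the variance model, dim genes, scaling, array weights, the arrays used, the probe set per gene, a minimum fold, a replicate block and leaving out each array. A planned look at protein ends was not run.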

Additional observations from a re-analysis of the deposited data

Results flagged for a closer look

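For 4 of the 31 genes, 1 of the 4 wild type arrays after αGalCer lay far from the others by Dixon's criterion. Replicate 1 stood apart for Hsp90b1 at 10.71 against 11.09 to 11.15, for Canx at 11.31 against 11.56 to 11.59, and for Syvn1 at 8.98 against 8.72 to 8.77. Replicate 3 stood apart for P4hb at 10.91 against 11.10 to 11.13. Chance flags about 1 in 20 groups, and 31 were looked at.

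The αGalCer effect differed between the genotypes, by limma's test of the difference, for 15 genes. Wild type minus knockout was 2.47 for Sdf2l1, 1.89 for Creld2, 1.22 for Manf, 1.21 for Hyou1, 1.11 for Pdia6, 0.99 for Dnajb11, 0.88 for Ern1, 0.87 for Sec61b, 0.71 for Hspa5, 0.67 for Calr, 0.61 for Pdia3, 0.43 for P4hb, 0.43 for Derl2, 0.34 for Atf6 and -0.37 for Derl1.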

How the results depend on the processing

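Of 155 changes (31 genes in 5 comparisons) 53 were called. Under 26 alternatives 0 of these 53 changed sign, 9 lost their call in a setting other than a required change of more than 1.2-fold, and 19 lost it under that requirement. Of the 102 uncalled changes 45 changed sign in at least 1 setting and 11 gained a call. Requiring more than 1.2-fold left 11 genes higher and 0 lower in wild type, where 12.4% and 13.4% of all genes were. With array weights 1 gene, Sec61b, was called lower in knockout (-0.30, adjusted p = 0.0489), where 0.781% of all genes were called lower and 0.930% higher. The single gene with a lower effect in wild type than in knockout, Derl1, became 2 with Herpud1 when dim genes were left out, after a second quantile normalization, centring on the median, array weights or the replicate block. It became 0 under the 1.2-fold requirement and without the 3 arrays with raised muscle genes or the 4 with raised muscle or epididymis genes, both of which leave 1 knockout vehicle array whose spread is taken from the other groups. Over all these settings 9.09% to 21.7% of all genes had the lower effect in wild type. Leaving out 1 array at a time this count was 1 to 2, and it was 2 without wild type αGalCer replicate 1 or knockout vehicle replicate 1. The cause of these changes was not tested. Over all settings the count of genes that rose in wild type was 11 to 19 (12.4% to 28.0% of all genes), of those with the higher effect in wild type 10 to 17 (7.55% to 20.7%), and of those lower in knockout than in wild type after αGalCer 11 to 17 (12.1% to 27.4%).

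Same-numbered samples correlated at -0.20 to 0.48 in their deviations from the group means, over 0.1 in 5 of 18 pairs, which is short of all pairs, so the samples were not treated as paired. Replicate 1 correlated at 0.30, 0.48 and 0.38 among wild type vehicle, wild type αGalCer and knockout vehicle, and what a number marks is not given in the labels. With the replicate block 18 genes rose and 2 fell in wild type (19.7% and 21.6% of all genes), 13 and 2 had a higher and a lower effect there than in knockout (14.2% and 14.9%), and 2 were higher and 16 lower in knockout than in wild type after αGalCer (21.4% and 19.2%); Derl2 lost its call for the difference (adjusted p = 0.0582) and Herpud1 gained one (adjusted p = 0.0332). Dim signals limit what RMA values can show, and no depth applies to arrays.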
